A study of Homo sapiens with 6 samples.

Results

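The genes of HLA class I antigen presentation were followed in MDA-MB-231 cells, a line from a triple-negative breast cancer, after CDK16 knockdown and after treatment with rebastinib (Reb), a kinase inhibitor that the study used against CDK16. They are 8 genes, the heavy chain genes HLA-B, HLA-C, HLA-E and HLA-F, the light chain gene B2M, and the peptide loading genes TAP1, TAP2 and TAPBP. They were chosen by gene symbol, and each symbol was found once among the 41471 symbols of the knockdown experiment and once among the 34157 of the Reb experiment. All 8 passed the filter on low values in each experiment, an average of 1 CPM (the count scaled to a common library size), as did 15295 and 15655 genes in all. The knockdown experiment compared stable, FACS-sorted lentiviral lines in which either CDK16-sh1, CDK16-sh2 or, as the control, a scramble shRNA was expressed. The second compared DMSO, the vehicle, with 1 μM and 5 μM Reb after 48 h in cells without a stated shRNA. Each of the 6 conditions had 1 mRNA library of a stranded kit, so a difference between 2 libraries has no replicate check and was not tested. The ranges in parentheses after a log2 fold change or ratio are 95% exact (Clopper-Pearson) intervals from the counts of the 2 libraries or genes, and since reads counted with no stated molecular identifiers are not independent molecules, they cover counting error only.

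A class I molecule is a heavy chain that pairs with β2-microglobulin, the product of B2M, and carries a short peptide to the cell surface. The peptides are cut by the proteasome in the cytosol, pumped into the endoplasmic reticulum by the transporter that TAP1 and TAP2 form together, and loaded with the help of tapasin, the product of TAPBP. T cells read the presented peptides, natural killer cells sense the loss of class I, and interferon γ is the best-known inducer of the whole set through IRF1 and NLRC5.

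In the GRCh38 coordinates of the deposited tables, 7 of the genes lie on the short arm of chromosome 6 in the major histocompatibility complex. In order these are HLA-F (29722775 to 29738528), HLA-E (30489467 to 30494205), HLA-C (31268749 to 31272130), HLA-B (31353872 to 31357188), TAP2 (32821833 to 32838780), TAP1 (32845209 to 32853978) and TAPBP (33299694 to 33314387), and B2M lies apart on chromosome 15 (44711477 to 44718877).

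Stretches of the promoters are shown because they hold the elements that class I genes are known to share. RefSeq windows on GRCh38.p14, from 250 bases before to 50 after the start of transcription, were found for 7 of the 8 genes, with 2 windows for TAP1, of which the second held no match. In the following stretches of 150 bases upstream of HLA-B (chr6:31357220-31357369, minus strand), HLA-C (chr6:31272133-31272282, minus strand) and B2M (chr15:44711327-44711476, plus strand), capitals mark matches on either strand to the letters of an interferon response element (GAAANNGAAA or GAANNGAAA), a κB element (GGGANNNNCC), a CCAAT box (CCAAT) or the core of a cAMP response element (TGACG). Neighbouring matches run together in the capitals.
HLA-B: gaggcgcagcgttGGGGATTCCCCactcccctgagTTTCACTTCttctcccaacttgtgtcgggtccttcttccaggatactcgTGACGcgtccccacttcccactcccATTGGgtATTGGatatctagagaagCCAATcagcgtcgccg
HLA-C: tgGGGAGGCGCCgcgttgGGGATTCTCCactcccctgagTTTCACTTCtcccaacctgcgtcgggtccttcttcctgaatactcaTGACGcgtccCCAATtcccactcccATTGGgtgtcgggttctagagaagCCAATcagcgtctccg
B2M: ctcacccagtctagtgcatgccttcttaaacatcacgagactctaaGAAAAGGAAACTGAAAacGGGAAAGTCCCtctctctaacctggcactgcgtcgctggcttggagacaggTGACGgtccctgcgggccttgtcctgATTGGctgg

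The other 4 genes are shown by 30 bases around the interferon response element, from chr6:29723268-29723297 on the plus strand for HLA-F, and on the minus strand from chr6:32853816-32853845 for TAP1, chr6:32838781-32838810 for TAP2 and chr6:33314076-33314105 for TAPBP. Capitals mark matches to its 2 spellings only.
HLA-F: ctccccagagTTTCTCTTTCtctcccaacc
TAP1: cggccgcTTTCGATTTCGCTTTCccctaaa
TAP2: tggctgggGAAGCGAAAGCGAAAgctgccc
TAPBP: tttggagGAAAGTGAAAGTGAAAggaggaa

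The interferon response element was found in 7 of 7 genes, against 10.6% of all 35116 promoter windows. A κB element was found in 5 of 7 (25.6% of all windows), a CCAAT box in 5 of 7 (34.6%) and the TGACG core in 4 of 7 (24.6%). The 3 genes with all 4 kinds were HLA-B, HLA-C and B2M, and 47 of all windows, or 0.134%, held all 4. Of 27 tested genes with all 4 kinds, these 3 included, 8 (29.6%) were at least 2-fold higher at 5 μM Reb. Among all 9989 tested genes with a window the share was 21.9%, and a part of these elements in the change was not tested. These letters were searched with the expression results known, and a match in a window is a description of sequence and not a bound site.

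Total counts ranged from 25838443 to 31955119 in the knockdown experiment and from 37655548 to 50303269 in the Reb experiment. CDK16 had 3223 counts in the scramble library, 1360 with CDK16-sh1 and 846 with CDK16-sh2, log2 fold changes of −1.52 and −1.82, and 4996, 4609 and 2797 counts with DMSO, 1 μM and 5 μM Reb. The share of mitochondrial transcripts was 11.3% in the scramble library, 10.4% with CDK16-sh1 and 16.2% with CDK16-sh2, and 7.19% with DMSO, 8.30% at 1 μM and 16.4% at 5 μM. Of the line's markers, VIM, CD44, EGFR and KRT18 were detected in every library, ESR1 had at most 12 counts and PGR at most 16, and ERBB2, which lacks amplification in triple-negative lines, had 1349, 1876 and 1520 counts in the knockdown libraries and 3396, 3225 and 996 in the Reb libraries. Of 8 immune cell markers, 6 had 0 counts in the scramble library, and PTPRC, the pan-leukocyte marker, had 0, 3 and 0 counts in the knockdown libraries. In the Reb libraries PTPRC had 2 counts in the vehicle library, 35 at the low dose and 2 at the high dose. Summed over the 8 immune markers the level was between 107 and 235 RPKM in the 6 libraries, and CD68, a lysosomal protein gene, made up at least 99.2% of it.

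Levels were compared between genes as RPKM, the read count divided by the summed exon length and by the library total. In the scramble library HLA-B was at 231.8 RPKM, HLA-C at 156.5, HLA-E at 90.1 and B2M at 45.2. TAP2 followed at 26.95 RPKM, TAPBP at 19.3, TAP1 at 10.6 and HLA-F, a non-classical heavy chain that is mostly held inside the cell, at 4.22. Classical heavy chain genes thus stood highest and HLA-F lowest, and no neighbours in this order had overlapping counting intervals.

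With DMSO the order at the top was different. HLA-E, whose product presents leader peptides of other class I chains to natural killer cells, was at 86.5 RPKM, HLA-C at 79.8, HLA-B at 70.3 and B2M at 18.7. TAP2 was at 17.7 RPKM, TAPBP at 7.90, TAP1 at 5.86 and HLA-F at 1.95. The scramble library was above the DMSO library 3.30-fold for HLA-B, 1.96-fold for HLA-C, 2.42-fold for B2M and 2.45-fold for TAPBP, but 1.04-fold for HLA-E. The experiments were normalised separately, so a difference between the cultures and one between the tables cannot be told apart.

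**Figure D1:**
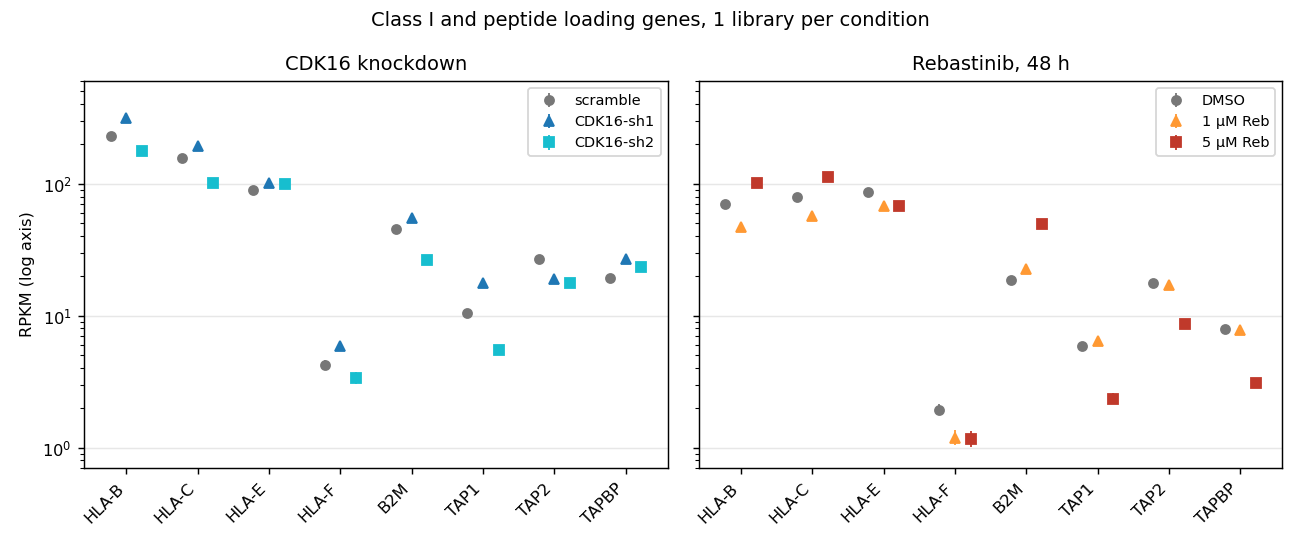
RPKM of the 8 genes (log axis) in each of the 6 libraries, with the knockdown experiment on the left and the Reb experiment on the right, and bars for 95% counting intervals, which are mostly smaller than the symbols. HLA-B is at 231.8 RPKM in the scramble library and at 70.3 with DMSO, while HLA-E is at 90.1 and 86.5.

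Between-gene levels depend on the length used. The exons of B2M in the deposited tables add up to 6089 bases, while its longest protein-coding transcript in GENCODE 29 has 1705. Per kilobase of the longest coding transcript, a scale added after the data had been seen, B2M was at 161.6 in the scramble library after HLA-B and HLA-C, and with DMSO the order became HLA-B at 136.8, HLA-C at 128.7, HLA-E at 98.99 and B2M at 66.8. Changes of 1 gene between libraries are not touched by this choice.

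The knockdown comparison asks how the class I genes stood when CDK16 was depleted by each of 2 hairpins. With CDK16-sh1, 7 of the 8 genes were above the scramble library by more than counting error, and with CDK16-sh2, 5 were below it. Of all tested genes, 49.9% were above the control with CDK16-sh1 and 48.6% below it with CDK16-sh2, by any margin. The share of all genes beyond counting error was not determined. TAP1, B2M, HLA-B and HLA-C were on opposite sides with the 2 hairpins, TAP2 was lower with both, and TAPBP and HLA-E were higher with both. TAP1, a transporter subunit, had 1249 counts in the scramble library, 2578 with CDK16-sh1 and 695 with CDK16-sh2, so the hairpins lay on opposite sides of the control. On the log2 scale, from TMM-scaled CPM with a prior count of 2, CDK16-sh1 was at 0.77 (0.67 to 0.87) relative to the control and CDK16-sh2 at −0.74 (−0.87 to −0.60). The difference of −1.51 between the hairpins (−1.63 to −1.39, CDK16-sh2 minus CDK16-sh1) was the largest of the 8 genes.

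B2M, HLA-B and HLA-C shared this opposition. B2M had 7118 counts in the scramble library, 10780 with CDK16-sh1 and 4458 with CDK16-sh2, which is 0.32 (0.28 to 0.37) and −0.57 (−0.62 to −0.51) in log2 fold change. HLA-B had 18041, 30325 and 14708 counts, and its log2 fold changes were 0.47 and −0.19. HLA-C had 10140, 15388 and 6932 counts, with log2 fold changes of 0.33 and −0.44. In all 3 genes CDK16-sh1 stood above the control library and CDK16-sh2 below it by more than counting error. After removal of trends with GC content and exon length, an alternative added after the data had been seen, HLA-B with CDK16-sh1 was at 0.040 and HLA-C at −0.24, and TAP1 was at 0.47 and −0.84. The fold changes of all genes with CDK16-sh1 ran with GC content, with a median of −0.43 in the lowest of 5 equal GC bins, which holds B2M, and 0.42 in the highest bin, which holds HLA-B and HLA-C. Its part in these values was not tested.

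HLA-F, the least abundant gene, had 473, 825 and 402 counts, and it stood at 0.52 (0.36 to 0.69) with the first hairpin and −0.13 (−0.32 to 0.07) with the second on the log2 scale. Only with CDK16-sh1 was it outside counting error.

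Both hairpin libraries were on the same side of the control in the 3 remaining genes. TAP2, the partner of TAP1, had 4450 counts in the scramble library, 3846 with CDK16-sh1 and 3119 with CDK16-sh2, which is −0.49 (−0.55 to −0.42) and −0.41 (−0.47 to −0.34) in log2 fold change. TAPBP had 2526, 4337 and 3234 counts, and the log2 fold changes were 0.503 (0.43 to 0.57) and 0.46 (0.39 to 0.54). HLA-E had 6923, 9698 and 8182 counts, log2 fold changes of 0.21 and 0.35, and the value for CDK16-sh1 was −0.094 with the GC and length trends removed. TAP2 thus stood lower and TAPBP higher in both hairpin libraries, which share the 1 control library.

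Over the 8 genes the median log2 fold change was 0.40 with CDK16-sh1, beside −0.0018 over all tested genes, and −0.30 with CDK16-sh2, beside 0.018. Past 2-fold, the threshold of the study, 0 genes of the set were lower with CDK16-sh1 (6.86% of all tested genes were) and 0 higher (4.33%). With CDK16-sh2, 0 were lower (7.62%) and 0 higher (2.2%). When the hairpin libraries were joined and tested against the control library, edgeR's quasi-likelihood test called 0 of the 8 genes and 0% of all genes (Benjamini-Hochberg adjusted p up to 0.05 and at least 2-fold). This fit has 1 residual degree of freedom and takes the difference between hairpins as the spread. At an unadjusted p under 0.05 were 0 of the 8 and 382 of all genes, the smallest unadjusted p of the set was 0.357 for TAPBP, and DESeq2 also called 0 genes.

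**Figure D2:**
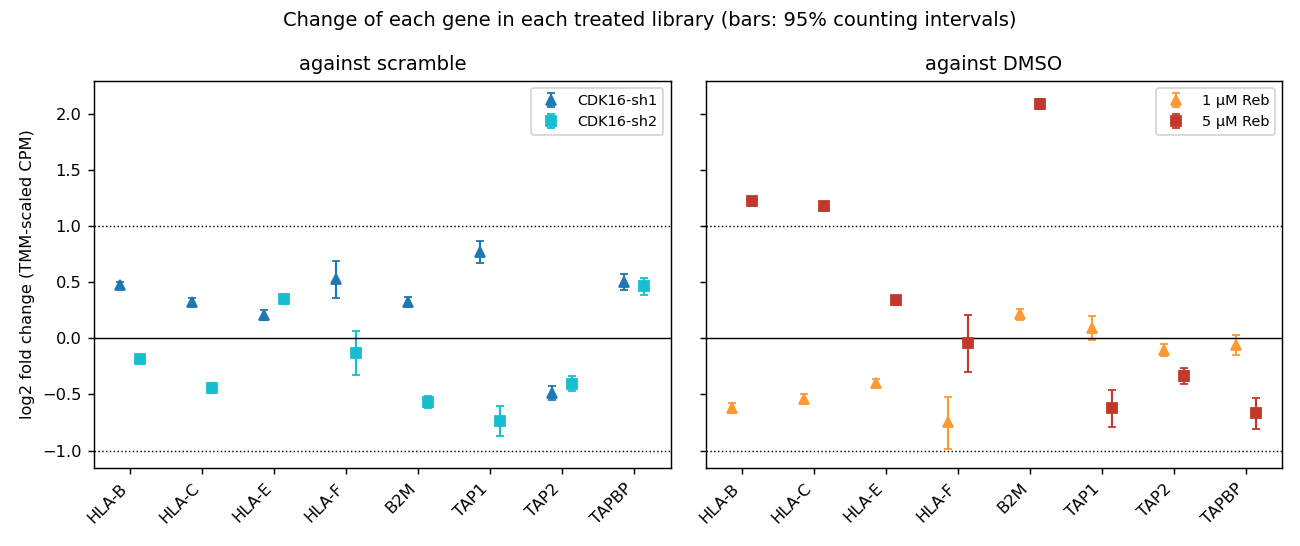
Log2 fold change of each gene against its control (y axis), with CDK16-sh1 and CDK16-sh2 on the left, 1 μM and 5 μM Reb on the right, bars for 95% counting intervals and dotted lines at 2-fold. TAP1 lies at 0.77 and −0.74 for the hairpins, and only HLA-B (1.22), HLA-C (1.17) and B2M (2.09) at 5 μM are past 2-fold.

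The Reb comparison asks how the same genes stood after inhibitor treatment at a low and a high dose. At 1 μM the 4 heavy chain genes were lower than with DMSO and the other 4 genes were between −0.10 and 0.21 of it on the log2 scale. At 5 μM B2M, HLA-B and HLA-C were more than 2-fold higher than with DMSO, while TAP1, TAP2 and TAPBP were lower. B2M had 5733 counts in the vehicle library, 6753 at 1 μM and 11305 at 5 μM, although the 5 μM library was the smallest of the 3. In TMM-scaled CPM these were 98.3, 113.9 and 417.9, so the high-dose library stood far above the other two. Relative to DMSO this is 0.21 (0.16 to 0.26) on the log2 scale at the low dose and 2.09 (2.04 to 2.13) at the high dose, a 4.25-fold higher level. That value was at percentile 92.6 of all tested genes in that library.

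The classical heavy chain genes were lower at 1 μM and higher at 5 μM. HLA-B had 10645 counts in the vehicle library, 7044 at the low dose and 11503 at the high dose, which is −0.62 (−0.66 to −0.58) and 1.22 (1.18 to 1.26) in log2 fold change. HLA-C had 10059, 7045 and 10529 counts, or −0.54 (−0.58 to −0.49) and 1.17 (1.13 to 1.21) in log2 fold change. In both genes the 3 libraries were apart by more than counting error, with the 5 μM library at the top.

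HLA-E and HLA-F, the non-classical genes of the set, differed from these at 5 μM. HLA-G, a non-classical gene outside the set, did not. It had 58, 47 and 94 counts, or −0.31 (−0.91 to 0.25) and 1.76 (1.32 to 2.30) in log2 fold change. HLA-E had 12952, 9989 and 7588 counts. Its values on the log2 scale were −0.40 (−0.44 to −0.36) at the low dose and 0.34 (0.30 to 0.38) at the high dose, which turned to −0.35 under scaling by library totals. HLA-F had 425, 256 and 191 counts, or −0.75 (−0.98 to −0.53) and −0.045 (−0.30 to 0.20) in log2 fold change. All 4 heavy chain genes were below DMSO at 1 μM, whereas at 5 μM HLA-F was within counting error of it with TMM. It was at −0.73 with library totals, −0.69 with RPKM + 0.1 and 0.47 with the GC and length trends removed, so its side of DMSO at 5 μM depends on the scaling.

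The loading genes were near DMSO at 1 μM and below it at 5 μM. TAP1 had 1349 counts in the vehicle library, 1459 at the low dose and 406 at the high dose, which is 0.089 (−0.018 to 0.20) and −0.62 (−0.79 to −0.46) in log2 fold change. TAPBP had 2009, 1957 and 586 counts, or −0.061 (−0.15 to 0.029) and −0.67 (−0.80 to −0.54) in log2 fold change. TAP2 had 5700, 5391 and 2096 counts, log2 fold changes of −0.10 and −0.33. The 5 μM library was thus lowest in all 3 loading genes and highest in B2M, HLA-B and HLA-C.

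Over the 8 genes the median log2 fold change was −0.25 at 1 μM, beside 0.0016 over all tested genes, and 0.15 at 5 μM, beside −0.070. At 1 μM, 0 of the 8 were at least 2-fold lower (1.92% of all genes) and 0 higher (1.28%). At 5 μM, 0 were lower (27.2%) and 3 were higher (23.6%), so 3 of 8 in the set stand beside a background of that size. The fit that joins the 2 doses has 1 residual degree of freedom and takes the difference between the doses as the spread. It can therefore hardly call genes such as HLA-B and HLA-C, whose doses lay on opposite sides of DMSO. When the 2 doses were joined and tested against the vehicle library, edgeR called 0 of the 8 genes and 0.0767% of all genes, 12 in number. The smallest unadjusted p of the set was 0.284, for B2M, and 228 of all genes had an unadjusted p under 0.05, while DESeq2 called 18 genes and 0 of the set. In a fit linear in log2(dose + 1), B2M alone of the 8 passed an adjusted p of 0.05 (edgeR, adjusted p = 0.00683), as did 24.5% of all genes, and HLA-B and HLA-C had adjusted p-values of 0.0905 and 0.103.

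The changes at 5 μM rest on the scaling of that library. When libraries were scaled by their totals, the median log2 fold change of all genes at 5 μM was lower by a shift of −0.68. HLA-B was then at 0.53, HLA-C at 0.48 and B2M at 1.40, still above DMSO, and TAP1 was at −1.31, TAP2 at −1.02 and TAPBP at −1.36. Under library totals 1 of the 8 genes was thus at least 2-fold higher and 3 were at least 2-fold lower. With the GC and length trends removed, HLA-B was at 1.60, HLA-C at 1.52 and B2M at 1.81, and TAP1, TAP2 and TAPBP were between −0.10 and −0.098. Under each of these scalings B2M, HLA-B and HLA-C were above DMSO. The loading genes were clearly below it with TMM and with library totals. With the trends removed they were close to the median of all tested genes, which was −0.070 with TMM.

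**Figure D3:**
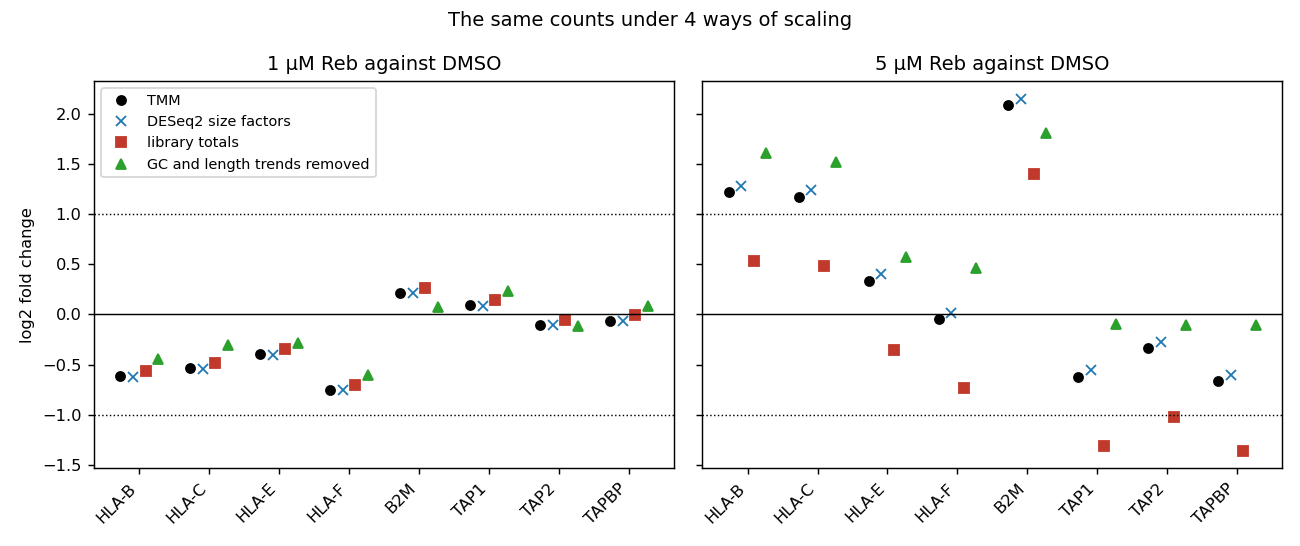
Log2 fold change of the 8 genes against DMSO at 1 μM (left) and 5 μM (right) under TMM, DESeq2 size factors, library totals, and with GC and length trends removed, with dotted lines at 2-fold. At 5 μM, B2M is at 2.09 with TMM and 1.40 with library totals, and HLA-E at 0.34 and −0.35.

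Ratios of 2 genes within a library do not depend on its scaling. B2M had 0.539 counts for each HLA-B count with DMSO (0.521 to 0.556), 0.959 at 1 μM (0.927 to 0.991) and 0.983 at 5 μM (0.958 to 1.01). Against HLA-E it went from 0.443 with DMSO to 0.676 at 1 μM and 1.49 at 5 μM. The count of B2M for each count of the 4 heavy chain genes together was 0.168, 0.278 and 0.379 with DMSO, 1 μM and 5 μM. B2M lies in the lowest of the 5 GC bins and HLA-B and HLA-C in the highest. With the GC and length trends removed, the log2 fold change of B2M minus that of HLA-B was 0.51 at 1 μM and 0.21 at 5 μM, in place of 0.83 and 0.87, and minus that of HLA-C it was 0.38 and 0.29, in place of 0.75 and 0.91. Against HLA-E it was 0.36 and 1.24, and against HLA-F 0.67 and 1.35. In the hairpin libraries this ratio was 0.200 in the scramble library, 0.192 with CDK16-sh1 and 0.147 with CDK16-sh2.

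Among the heavy chain counts, HLA-E took 38.0% with DMSO, 41.0% at 1 μM and 25.5% at 5 μM, and HLA-B took 31.2%, 28.9% and 38.6%. HLA-B to HLA-C ratios were 1.06, 1.00 and 1.09 in the Reb experiment. In the knockdown experiment they were 1.78 (1.74 to 1.82) in the scramble library, 1.97 (1.93 to 2.01) with CDK16-sh1 and 2.12 (2.06 to 2.18) with CDK16-sh2, apart by more than counting error. The balance of HLA-B to HLA-E at 5 μM, 1.52, was above that with DMSO, 0.822, and at 1 μM, 0.705.

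In the loading complex, the ratio of TAP1 to TAP2 counts was 0.281 in the scramble library, 0.670 with CDK16-sh1 and 0.223 with CDK16-sh2. With DMSO it was 0.237, at 1 μM 0.271 and at 5 μM 0.194. The CDK16-sh1 library stands apart from the other 5 in this ratio. The ratio of TAPBP to TAP2 was 0.568 in the scramble library and higher with both hairpins, 1.13 and 1.04, while with DMSO, 1 μM and 5 μM Reb it was 0.352, 0.363 and 0.280.

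**Figure D4:**
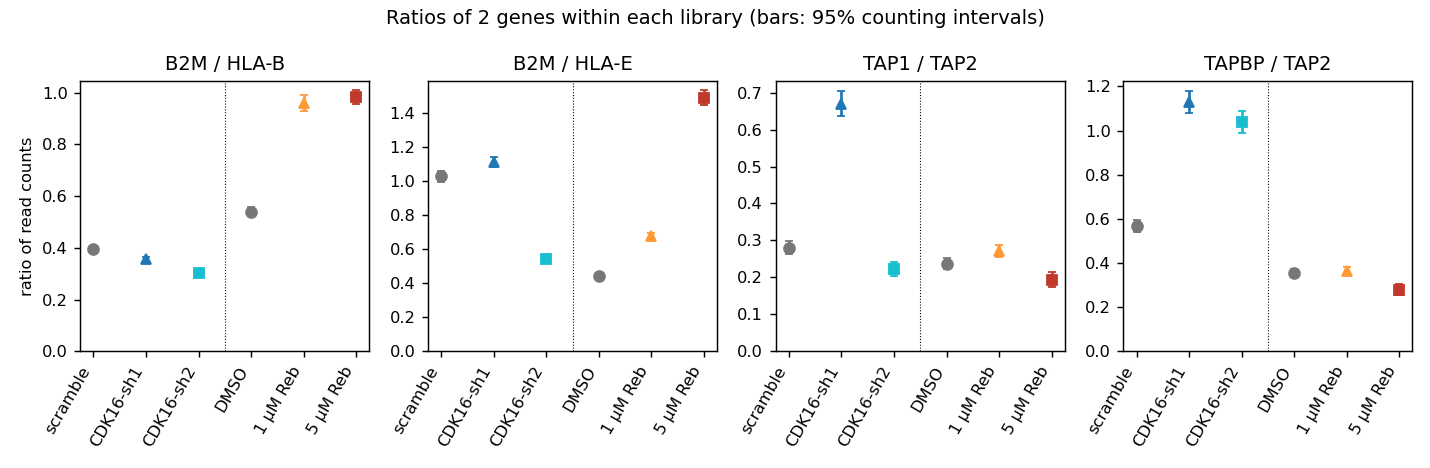
Ratio of the read counts of B2M to HLA-B, B2M to HLA-E, TAP1 to TAP2 and TAPBP to TAP2 (y axes from 0) in each of the 6 libraries, with bars for 95% counting intervals and a dotted line between the experiments. TAP1 to TAP2 is 0.670 with CDK16-sh1 and between 0.194 and 0.281 in the other libraries, and B2M to HLA-E is 0.443 with DMSO and 1.49 at 5 μM.

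Reads can be shared with other features at these loci. HLA genes are polymorphic paralogs, so reads can be lost or assigned to a relative, and of 9 class I pseudogenes HLA-H had 2856, 5505 and 3032 counts in the knockdown libraries and 778, 550 and 522 in the Reb libraries. With TMM, HLA-H was at 0.67 with CDK16-sh1, 0.19 with CDK16-sh2, −0.52 at 1 μM and 0.53 at 5 μM, on the side of HLA-B in all but CDK16-sh2. By RPKM, HLA-H was at −0.16 on the log2 scale at 5 μM and −0.0036 with CDK16-sh2. With library totals HLA-B was at 0.53 and −0.38 in these libraries, so at 5 μM the 2 genes lay on opposite sides of DMSO. TAP2 shares 2064 exon bases, or 32.3% of its exons, with XXbac-BPG246D15.9 on the same strand, and TAP1 456 bases with PSMB8-AS1 on the other strand. HLA-B shares 542 bases with the antisense gene XXbac-BPG248L24.12, which had between 7.26% and 8.44% of the count of HLA-B in the knockdown libraries and between 26.5% and 27.1% in the Reb libraries. XXbac-BPG246D15.9 had between 70.5% and 86.3% of the count of TAP2 over the 6 libraries. HLA-F shares exon bases with 3 features on the other strand, of which HLA-F-AS1 had between 2.06% and 5.22% of the count of HLA-F in the knockdown libraries and 31.1%, 69.1% and 21.99% with DMSO, 1 μM and 5 μM Reb. The values of HLA-F and TAP2 are uncertain in this respect. Whether the counting used the strand is not given in the sources used here.

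The class I pathway around these genes was followed with lists written by hand. Of 5 immunoproteasome and PA28 genes, all were above the scramble library with CDK16-sh1 (median log2 fold change 0.51), beside 49.9% of all tested genes. With CDK16-sh2, 3 were below it (median −0.072), beside 48.6% of all tested genes. None was past 2-fold with either hairpin. PSMB8, a catalytic subunit that replaces its constitutive counterpart under interferon, had 1467, 2669 and 1535 counts. PSMB9, which neighbours TAP1, had 527, 845 and 287, and PSMB10, the other subunit of this kind, had 648, 1193 and 371. PSME1, of the proteasome activator PA28, was at 0.43 and 0.15. As for TAP1, the CDK16-sh1 library was the highest of the 3 in each of these genes.

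At 5 μM Reb the 3 catalytic immunoproteasome subunits were below DMSO, while PSME1 and PSME2, the other members of that list, were above it like B2M, at 1.29 and 0.54 on the log2 scale. Past 2-fold, 1 of the 5 was lower and 1 higher, beside 27.2% and 23.6% of all genes. By RPKM PSME2 was at 15.9 with DMSO and 14.4 at 5 μM. PSMB9 had 148 counts in the vehicle library, 108 at the low dose and 10 at the high dose, or −0.47 and −2.65 in log2 fold change. PSMB8 had 1240, 1380 and 365 counts and PSMB10 316, 302 and 116. Of the 3 constitutive counterparts, PSMB6 and PSMB7 were at least 2-fold higher at 5 μM with TMM, though neither was by RPKM, and PSMB5 was lower, with 3525, 3265 and 716 counts. With the hairpins PSMB5 was at 0.45 and 0.49 and PSMB6 at 0.75 and 0.34.

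Of 8 peptide loading chaperones and partners, 8 were above DMSO at 5 μM with TMM, beside 48.3% of all genes. Their median log2 fold change was 0.68, and 3 were at least 2-fold higher, beside 23.6% of all genes. In RPKM, which rests on library totals, 3 of the 8 were above DMSO at 5 μM, 1 of them at least 2-fold, and the median log2 ratio was −0.0055. PDIA3, the disulfide isomerase that joins tapasin, had log2 fold changes of 0.38 and 1.80 at 1 μM and 5 μM, and TAPBPL, a tapasin relative that edits peptides, of 0.497 and 0.22. In the knockdown experiment CANX, the chaperone calnexin, had 36307, 27835 and 12450 counts, log2 fold changes of −0.66 and −1.44, and UGGT1, which tags unfinished glycoproteins for refolding, −0.86 and −0.47. Of 8 peptidases that trim peptides, 6 were below the scramble library with CDK16-sh1 and 5 with CDK16-sh2, beside 50.1% and 48.6% of all genes, among them ERAP1 (−0.56 and −0.62) and ERAP2 (−0.88 and −0.51), which trim inside the endoplasmic reticulum. At 5 μM, 3 of the 8 were at least 2-fold lower, close to the 27.2% of all genes, with BLMH at −1.56 and TPP2 at 0.17.

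The transcription regulators of class I were spread widely at 5 μM. Of 13 tested, 6 were at least 2-fold lower and 4 at least 2-fold higher with TMM, beside the 27.2% and 23.6% of all genes. In RPKM, 6 were at least 2-fold lower and 2 at least 2-fold higher. NLRC5, the class I transactivator, had 375 counts in the vehicle library and 443 and 35 at the rising doses. IRF1, which binds the interferon response element, had 1326, 1130 and 189. RFX5, the factor of the X box, had log2 fold changes of −0.51 and −2.15, and RFXAP, its partner, of 0.89 and 1.01. NFKB1, a subunit of the factor that binds κB elements, was at −0.24 and 2.28, while RELA, another subunit of it, was at −0.51 and −1.96. Of the CCAAT-binding factor, NFYA was at −0.21 and 2.09, NFYB at 0.31 and 0.22, and NFYC at 0.042 and 0.72. ATF1, which binds the cAMP response element, was at 0.073 and 1.35, and CREB1, which also binds it, at −0.023 and 0.31. In the 5 μM library, where HLA-B, HLA-C and B2M were above DMSO, regulators of these promoters thus lay on both sides of it.

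With the hairpins, NLRC5 had 438, 578 and 424 counts and IRF1 1547, 2224 and 687. NFYA, a CCAAT-binding subunit, was at −0.86 and −0.596, and NFYC, its partner, at 0.43 and 0.46. IRF1 was above the scramble library with CDK16-sh1 and below it with CDK16-sh2, the same sides as TAP1.

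Of 7 genes of the interferon γ receptor pathway, 4 were below the scramble library with CDK16-sh1 and 5 with CDK16-sh2, beside 50.1% and 48.6% of all genes. SOCS3, a feedback inhibitor, was at 0.5995 and 0.89 with the hairpins and at 0.039 and −1.11 with Reb. At 5 μM, 2 of 6 tested genes were at least 2-fold lower and 2 higher with TMM, beside 27.2% and 23.6% of all genes. In RPKM, 2 of the 6 were at least 2-fold lower and 1 higher. In the Reb libraries JAK2 was at −0.22 and −0.16, and IFNGR1, a receptor chain, had 885, 1283 and 3165 counts, log2 fold changes of 0.51 and 2.94. Of type I interferon-stimulated genes, 12 were tested in the knockdown experiment, of which 11 were below the scramble library with CDK16-sh2 (48.6% of all genes) and 3 at least 2-fold lower (7.62%), with IFIT3 at −0.31 and −1.04 and IFI44 at −0.53 and −0.34. At 5 μM Reb, 5 of 11 were at least 2-fold lower and 3 higher with TMM, beside 27.2% and 23.6% of all genes, with IRF9 at −1.92 and IFIT1 at 1.52. In RPKM, 6 of the 11 were at least 2-fold lower and 1 higher. No list gene was called by edgeR's quasi-likelihood test in either experiment.

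**Figure D5:**
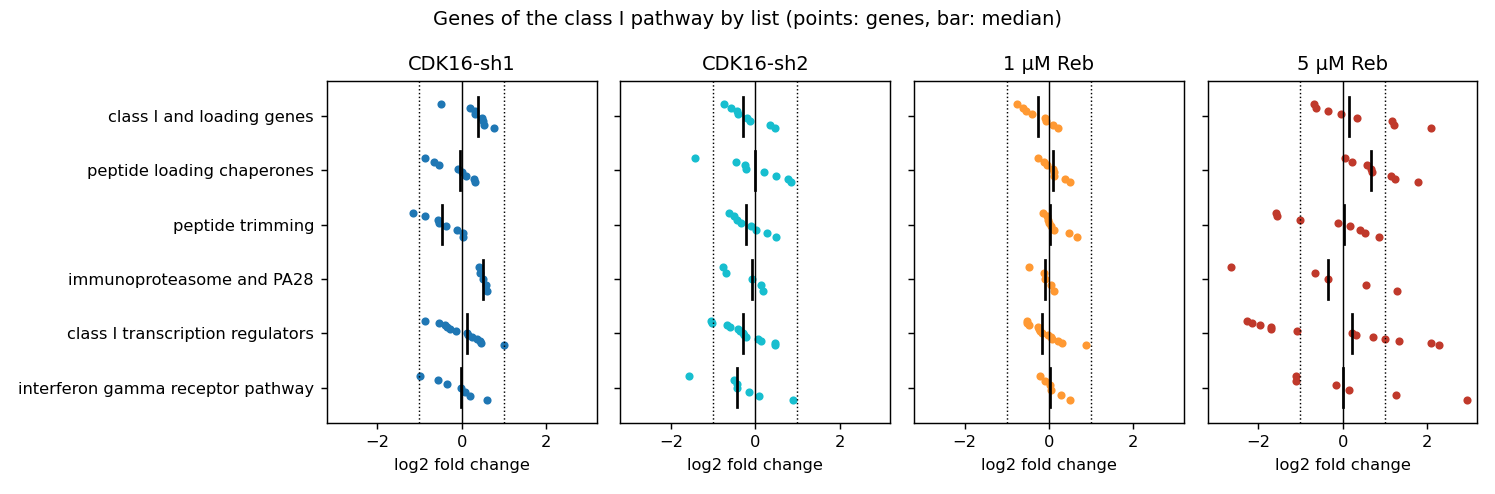
Log2 fold changes (x axis) of the tested genes of the class I set and of 5 pathway lists in each treated library, with a point for each gene, a bar for the median of the list and dotted lines at 2-fold. Immunoproteasome and PA28 genes have medians of 0.51 with CDK16-sh1 and −0.33 at 5 μM, and peptide loading chaperones of 0.68 at 5 μM with TMM.

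Other receptors and ligands gave a mixed picture. HFE, an iron regulator whose product pairs with β2-microglobulin, was at −0.80 and −0.70 with the hairpins, and FCGRT, the heavy chain of the neonatal Fc receptor, at −0.76 and −0.80. Among the ligands of the activating receptor NKG2D, MICB was at 0.61 and 1.33 and ULBP3 at −0.69 and −1.66 with the hairpins, and ULBP3 was at −0.33 and −1.47 and RAET1E at −0.70 and −1.87 with Reb. The pseudogene HLA-K was at 0.57 and 0.096 with the hairpins and at −0.67 and −0.89 with Reb, and HLA-L was at −0.14 and −1.01 with Reb.

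Class II genes, which professional antigen presenting cells use, separated the experiments. HLA-DRA had 485 counts in the scramble library, 278 with CDK16-sh1 and 244 with CDK16-sh2, log2 fold changes of −1.07 and −0.88, while HLA-DRB1 had 1171, 1809 and 832. CD74, the invariant chain, had 8284, 14936 and 7197 counts. In the Reb experiment HLA-DRA had 0 counts with DMSO, where a count of 0 allows up to 3 counts, and 28 and 0 counts at 1 μM and 5 μM. CD74 had 687, 897 and 655, log2 fold changes of 0.36 and 1.04, and HLA-DMB was at 0.74 and 0.59. The 28 counts at 1 μM stand beside the 35 counts of PTPRC in that library, whose part was not tested. CIITA, the class II transactivator, had 415, 389 and 256 counts with the hairpins, log2 fold changes of −0.37 and −0.59. Summed over the 13 class II genes the level was 167.4 RPKM in the scramble library, 217.2 with CDK16-sh1 and 123.0 with CDK16-sh2, the same order as HLA-B and B2M, and 6.37, 9.92 and 6.77 RPKM in the Reb libraries. CD74 alone held 100.7, 146.8 and 82.2 RPKM of the knockdown sums, so their order is largely that of CD74. Since fewer cells of a kind and less RNA per cell give the same change in a bulk library, the level per cell is not known.

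The 5 genes nearest to the median profile of the set over the 4 treated libraries were sought among the 10546 genes that averaged 5 CPM or more in both experiments. They were UAP1L1, SH3BP1, MLLT1, C19orf25 and CTDSP2, at Euclidean distances from 0.123 to 0.193 in log2 fold change. The 8 genes themselves lay further from that median, between 0.574 for HLA-F and 2.02 for B2M, so the median describes no member closely.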

How the data were processed

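Messenger RNA was sequenced by the authors on a HiSeq X 10. The submitters' processing notes name Trimmomatic, featureCounts, Subread 1.5.1 and GRCh38, and the annotation is not given in the sources used here. The deposited count tables hold the authors' read counts per gene symbol, not normalized. The deposited RPKM tables hold these counts divided by the exon length and the library total. Coordinates of genes are those of the tables, and promoter sequences are RefSeq's on GRCh38.p14.

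Counts were scaled by TMM in edgeR 4.0.16 (R 4.3.3) over genes that averaged 1 CPM or more, and log2 fold changes were taken with a prior count of 2. With 1 library per condition, only both treated libraries together could be tested against their control (quasi-likelihood test, Benjamini-Hochberg over all genes). The fit was checked on simulated data in which 200 genes had a log2 fold change of 3. At a biological coefficient of variation of 0.1 it called 200 of them in each experiment. At 0.4 it called 99 of 200 in the knockdown experiment and 112 of 200 in the Reb experiment. Smaller log2 fold changes, such as those of the 8 genes, were not tested in this way. No source says that the libraries came from separate cultures, so p-values measure the spread between these libraries, which may be technical. Alternatives were DESeq2 1.42.0, its size factors, library totals, RPKM + 0.1, no filter, a prior count of 0.5, a 1.5-fold threshold and dose as a linear term. Removal of GC and length trends and the transcript-length scale were added after the data had been seen, and the GC content was known for 84.6% and 84.3% of the tested genes. The genes, lists and tests were chosen with earlier results of these data known. The named genes were the 8 genes, CDK16, 8 pathway genes, the 5 nearest genes and, of each list and experiment, the 2 tested genes with the largest smaller change among those on the same side in both treated libraries, and others were named after their values had been seen. 1 gene that this rule names is not reported here.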

Additional observations from a re-analysis of the deposited data

Results flagged for a closer look

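For 4 genes the hairpins lay on opposite sides of the scramble library by more than counting error. The difference in log2 fold change, CDK16-sh2 minus CDK16-sh1, was −0.66 for HLA-B, −0.77 for HLA-C, −0.89 for B2M and −1.51 for TAP1. For 3 genes the doses of Reb lay on opposite sides of DMSO, with differences, 5 μM minus 1 μM, of 1.84 for HLA-B, 1.71 for HLA-C and 0.73 for HLA-E. With library totals HLA-E at 5 μM was at −0.35, below DMSO as at 1 μM, and with the GC and length trends removed HLA-C was at −0.24 with CDK16-sh1, below the scramble library as with CDK16-sh2. These differences were not tested, as each condition had 1 library, and the libraries of an experiment share 1 control. Mitochondrial transcripts took 16.2% of the counts with CDK16-sh2 against 10.4% with CDK16-sh1, and 16.4% at 5 μM against 8.30% at 1 μM, and their part in these differences was not tested.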

How the results depend on the processing

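No paired analysis was possible because each condition had 1 library and the labels give no replicate numbers shared between groups. Leaving out a library leaves no residual degree of freedom, so it gives no test. Over the 32 log2 fold changes of the 8 genes, 28 stayed inside their counting interval with DESeq2 size factors, 13 with library totals, 13 with RPKM + 0.1, 25 without a filter on low counts, 32 with a prior count of 0.5 and 5 with the GC and length trends removed. The sign changed in 1, 1, 1, 0, 0 and 4 of them.

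At 5 μM Reb the median of the set was −0.54 with library totals, −0.52 with RPKM + 0.1, −0.057 without a filter and 0.52 with the trends removed, against 0.15. Library totals and RPKM + 0.1 gave 3 genes at least 2-fold lower and 1 higher there, in place of 0 and 3. HLA-C without a filter was at 0.97, just inside 2-fold. With CDK16-sh2 the median was −0.49 with library totals and with RPKM + 0.1, and with CDK16-sh1 it was 0.12 with the trends removed. At 1 μM it was −0.20 under library totals, RPKM + 0.1 and with the trends removed. A 1.5-fold threshold gave 1 gene higher with CDK16-sh1, 1 lower with CDK16-sh2, 2 lower at 1 μM and 2 lower at 5 μM. Dose as a linear term differed from the pooled fit in B2M by adjusted p alone, with no fold threshold. The slope of B2M was 0.84 in log2 fold change for each unit of log2(dose + 1), under the 2-fold threshold of the pooled fit. The cause of these shifts was not tested. TAP1 at 5 μM (406 counts) and HLA-F (191 to 825 counts) have the widest counting intervals.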
